A study of Mus musculus with 18 samples.

Results

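Base excision repair is the pathway that removes single damaged or misplaced bases from DNA, and the 10 genes described here encode its first enzymes, 8 DNA glycosylases (Neil1, Neil2, Neil3, Nthl1, Ogg1, Mutyh, Ung and Mpg) and 2 AP endonucleases (Apex1 and Apex2). They were chosen by name, and all 10 were found among the 57180 genes of the count table. RNA came from cultures of the mouse fibroblast line L929, with 3 cultures in each of 6 groups. Mock cells received neither drug nor DNA. AOA cells received aminooxyacetic acid, an inhibitor of aminotransferases, at 0.5 mM, and AOA+Asp cells received the same drug together with 20 mM aspartate. The HT-DNA, HT-DNA+AOA and HT-DNA+AOA+Asp cells matched these 3 groups in their doses of AOA and aspartate. They also received herring testis DNA, a double-stranded ligand of cGAS, at 0.5 μg/ml for 6 h, with AOA added 1 h before the DNA. The labels do not give the total time with AOA of cells without HT-DNA. If it differed from that of cells with HT-DNA, effects of HT-DNA on the AOA response and of exposure time cannot be told apart. No group had aspartate alone, and every group came from this 1 line. The paper states that HT-DNA was transfected with a Lipofectamine reagent. The labels name no group with the reagent alone and do not say whether Mock cells received it. If they did not, effects of the DNA and of transfection cannot be told apart. The design asks how AOA changed a transcript, whether aspartate given with AOA moved it back, and whether HT-DNA altered either.

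A glycosylase recognizes a lesion and cuts the bond between the base and its sugar, which leaves an abasic site. An AP endonuclease then nicks the DNA backbone at that site, after which a polymerase fills the gap and a ligase seals it. Bifunctional glycosylases such as OGG1, NTHL1 and the NEIL enzymes can also cut the backbone themselves, and several of these proteins act in mitochondria as well as in the nucleus, where they meet bases oxidized by respiration. Ung gives a nuclear and a mitochondrial form of uracil-DNA glycosylase, and the counts are per gene, so they do not separate the forms of any enzyme.

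Library totals ran from 17901605 to 24057343 counts, with a median of 20385838, and all 10 genes passed the filter on low counts, as did 14263 genes in all. The labels held against marker transcripts. Ifit1, an interferon-stimulated gene, was at 0.0517 to 0.427 CPM (counts relative to the TMM-scaled library total) in the 9 libraries without HT-DNA and at 58.4 to 214 CPM in the 9 with it. Asns, the asparagine synthetase of the amino acid response, was at 503 to 580 CPM in the 6 libraries with AOA and no aspartate and at 360 to 435 CPM in the other 12. Of 8 fibroblast markers, 6 were at 20 CPM or more in every library and Thy1 was under 1 CPM in every library. All 6 epithelial and endothelial markers and 5 of 6 leukocyte markers were under 1 CPM throughout, and the other leukocyte marker, Cd68, was expressed. Replicates of HT-DNA+AOA differed most from each other, with a chi-square per degree of freedom of 18.2 to 67.0 between pairs, against 2.78 to 13.3 in the other 5 groups. The libraries of HT-DNA alone stood apart as well, with 48.2% of tested genes called against Mock, where the matching shares with and without HT-DNA were 13.4% in AOA cells and 3.45% in AOA+Asp cells. Calls that were lost when 1 library was left out are named below with the gene.

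Per kilobase of exon, Apex1 was by far the most abundant of the 10, at 85.7 CPM per kb on average over the 18 libraries, which is the percentile 95.7 of the tested genes. Ogg1 was next at 10.5 CPM per kb. Mpg at 4.66, Neil1 at 4.62, Nthl1 at 3.29, Ung at 2.53, Apex2 at 2.01 and Mutyh at 1.48 CPM per kb made up a middle range. Neil3 at 0.820 and Neil2 at 0.582 CPM per kb were the lowest, at percentiles 21.9 and 17.98. On the count scale the lowest libraries held 36 counts of Neil3, 39 of Neil2 and 60 of Mutyh, while no library held fewer than 1626 of Apex1. Averaged over the 18 libraries, Neil2 was at 2.92, Mutyh at 3.86 and Neil3 at 4.55 CPM, so these genes carry the most counting error. Exon lengths came from GENCODE vM21 on GRCm38, which may not be the annotation used by the authors.

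**Figure D1:**
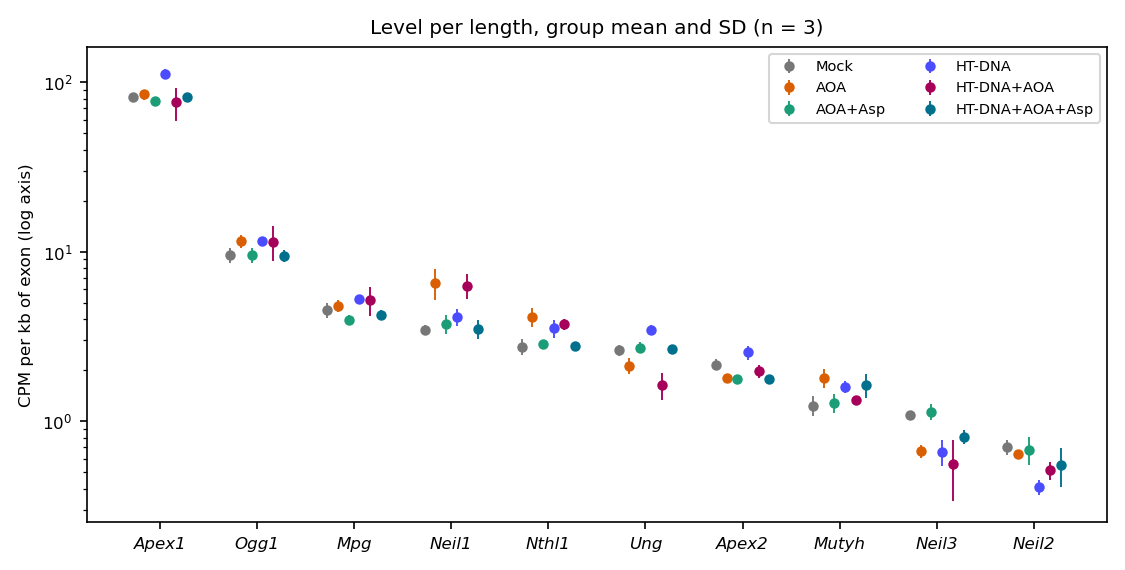
Group means of CPM per kb of exon on a log axis for the 10 genes, ordered from highest to lowest, with 1 point per group and bars for the SD of 3 libraries. Apex1 lies above all others in every group, and the range between groups is far narrower than the range between genes.

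Apex1 (chr14:50924968-50927139, plus strand) shares 61.7% of its exon bases with exons of Pip4p1 on the opposite strand, and Mpg (chr11:32226505-32232700, plus strand) shares 35.7% with Nprl3. Smaller stretches of Ogg1 (10.6%, Camk1) and Apex2 (4.96%, Alas2 and Pfkfb1) are shared in the same way. Whether the counting used strand is not given in the sources used here, so reads in these stretches cannot be assigned with certainty. Apex1 values were not whole numbers in 100% of libraries, Mpg values in 94.4% and Apex2 values in 77.8%. The same held in 38.9% of libraries for Neil3 and 16.7% for Neil2, which share no exon bases with other genes. Neil1, Nthl1, Ogg1, Mutyh and Ung had whole counts in every library.

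The 5 genes that moved both with AOA and with added aspartate in cells without HT-DNA have RefSeq promoters on GRCm38.p6, and the 250 bases before each start site are shown, because these genes moved in opposite directions. Neil1, Nthl1 and Mutyh were higher with AOA, and Neil3 and Ung were lower. Each sequence runs 5′ to 3′ on the strand of the gene, and capitals mark matches to the motifs searched on both strands.
Neil1 (chr9:57148306-57148555, minus strand): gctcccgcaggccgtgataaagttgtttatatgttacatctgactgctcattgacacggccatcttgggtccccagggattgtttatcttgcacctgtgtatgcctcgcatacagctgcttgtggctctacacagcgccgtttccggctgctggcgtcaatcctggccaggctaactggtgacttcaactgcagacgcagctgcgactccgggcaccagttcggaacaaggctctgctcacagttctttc
Nthl1 (chr17:24632432-24632681, plus strand): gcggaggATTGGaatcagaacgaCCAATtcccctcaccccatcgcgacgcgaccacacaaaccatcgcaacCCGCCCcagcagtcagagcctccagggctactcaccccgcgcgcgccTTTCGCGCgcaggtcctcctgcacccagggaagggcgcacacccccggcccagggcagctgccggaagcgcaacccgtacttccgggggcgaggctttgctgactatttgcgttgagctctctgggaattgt
Mutyh (chr4:116807484-116807733, plus strand): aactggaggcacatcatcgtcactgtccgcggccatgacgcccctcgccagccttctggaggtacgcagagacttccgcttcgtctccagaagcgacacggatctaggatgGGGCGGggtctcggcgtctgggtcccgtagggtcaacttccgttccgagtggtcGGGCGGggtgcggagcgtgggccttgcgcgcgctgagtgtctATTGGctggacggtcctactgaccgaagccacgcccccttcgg
Neil3 (chr8:53639066-53639315, minus strand): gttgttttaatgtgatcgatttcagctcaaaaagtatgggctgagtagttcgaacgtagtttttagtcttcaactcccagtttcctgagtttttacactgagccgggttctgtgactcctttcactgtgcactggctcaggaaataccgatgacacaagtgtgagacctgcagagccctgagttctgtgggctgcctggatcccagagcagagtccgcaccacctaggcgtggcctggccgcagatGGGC
Ung (chr5:114130185-114130434, plus strand): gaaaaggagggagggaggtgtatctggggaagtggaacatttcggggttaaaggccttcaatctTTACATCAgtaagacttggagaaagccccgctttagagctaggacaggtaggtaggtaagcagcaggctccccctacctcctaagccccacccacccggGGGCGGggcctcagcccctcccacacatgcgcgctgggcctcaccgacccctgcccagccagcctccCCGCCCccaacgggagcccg

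The search covered the 300 bases from 250 before to 50 after the start site. Of the 10 genes 8 had an entry, with 9 promoters in all since Mutyh has 2, and Neil2 and Apex2 had none. The 9 promoters had a median GC content of 63.3% and a median of 22 CpG sites, against 52.7% and 7 over all promoters. The shares of motifs below were not adjusted for this. The GC box GGGCGG was found in 7 of the 9 promoters, in Nthl1, Mutyh, Neil3, Ung, Ogg1, Mpg and Apex1, against 35.7% of all 32851 promoters. The CCAAT box CCAAT was found in 6 of the 9, in Nthl1, both of Mutyh, Ogg1, Mpg and Apex1, against 37.4% of all. One form of the E2F motif, TTTCGCGC, was found in Nthl1 alone, from 132 to 125 bases before the start, and 0.323% of all promoters hold it. The amino acid response element TGATGNAA was found in Ung alone, on the opposite strand, and 3.97% of all promoters hold it. The second E2F form TTTGGCGC, the NRF1 motif, the CRE TGACGTCA and the interferon-stimulated response element were in none of the 9, against 0.514%, 4.6%, 1.79% and 3.44% of all promoters. The Neil1 promoter held none of the motifs. In Neil3 the last 4 printed bases begin a GC box that runs over the start site, and a pair of GC boxes further downstream overlap each other by a single base. Matches are letters in a window and say nothing of binding.

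Upon AOA treatment of cells without HT-DNA, 6 of the 10 genes passed an adjusted p of 0.05, beside 45.7% of all genes tested. Neil1, Nthl1 and Mutyh rose 1.89-, 1.5- and 1.46-fold, beside 22.4% of all genes called higher. Neil3, Ung and Apex2 fell to 0.61, 0.81 and 0.84 of Mock, beside 23.3% called lower. AOA and Mock libraries were fully separated for 7 of the 10, beside 59.4% of all genes. The median log2 fold change of the 10 was 0.06, against 0.02 over all genes, and the median size of the change was 0.29 against 0.32. In bulk RNA a lower level in each cell and fewer cells that express the gene cannot be told apart. The share of the 10 genes called was not far from that of all genes.

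With aspartate added, 5 of these genes differed from AOA in the other direction, beside 46.3% of all genes called between AOA+Asp and AOA. Neil1, Nthl1 and Mutyh were 0.57, 0.69 and 0.71 of their level in AOA, beside 22.8% of all genes called lower, and Neil3 and Ung were 1.72- and 1.27-fold higher, beside 23.5% called higher. Libraries were fully separated for 7 of the 10, beside 56.8%. This comparison shares the AOA libraries with the one before it, so the direction of the differences is not independent of it. Between AOA+Asp and Mock, edgeR called 0 of the 10 beside 6.47% of all genes, DESeq2 also called 0, and 1 gene had an unadjusted p under 0.05. That gene was Apex2, at -0.28 on the log2 scale with an adjusted p of 0.0762. Apex2 was also the 1 gene whose libraries were fully separated, beside 32.7% of all genes.

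HT-DNA alone gave calls for 6 of the 10 against Mock, beside 48.2% of all genes. Apex1, Ung, Nthl1 and Apex2 rose 1.37-, 1.32-, 1.29- and 1.18-fold, beside 24.2% of all genes called higher, and Neil2 and Neil3 fell to 0.58 and 0.61 of Mock, beside 24.0% called lower. Libraries were fully separated for 8 of the 10, beside 61.3%. The median log2 fold change was 0.26 for the 10 and -0.01 over all genes.

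AOA in cells with HT-DNA, compared with HT-DNA alone, gave 4 calls, beside 45.4% of all genes. Neil1 rose 1.54-fold, beside 22.8% of all genes called higher, and Ung, Apex1 and Apex2 fell to 0.47, 0.68 and 0.77, beside 22.7% called lower. Aspartate added to HT-DNA and AOA also gave 4 calls beside 47.7%. Ung and Neil3 were 1.63- and 1.45-fold higher, beside 23.7% of all genes called higher, and Neil1 and Nthl1 were at 0.56 and 0.75 of HT-DNA+AOA, beside 23.9% called lower. Libraries were fully separated for 5 of the 10 in the first of these comparisons and 4 of the 10 in the second, beside 44.8% and 48.8% of all genes.

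Compared with HT-DNA alone, HT-DNA+AOA+Asp was lower for 5 of the 10 and higher for 0, beside 46.6% of all genes called and 23.5% called lower. Libraries were fully separated for 6 of the 10, beside 61.1%. The 5 were Apex2, Apex1, Ung, Nthl1 and Mpg, at 0.70, 0.73, 0.77, 0.79 and 0.80 of the HT-DNA level. This comparison shares the HT-DNA libraries with the comparisons of HT-DNA with Mock and with HT-DNA+AOA. Where AOA was present in both groups, fewer genes passed. HT-DNA+AOA differed from AOA for Ung alone, which was lower, beside 13.4% of all genes called and 6.98% called lower. HT-DNA+AOA+Asp differed from AOA+Asp for 0 of the 10 by edgeR and 0 by DESeq2, beside 3.45% of all genes, with 2 at an unadjusted p under 0.05. Libraries were fully separated for 3 and 1 of the 10 in these comparisons, beside 21.0% and 28.5%.

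**Figure D2:**
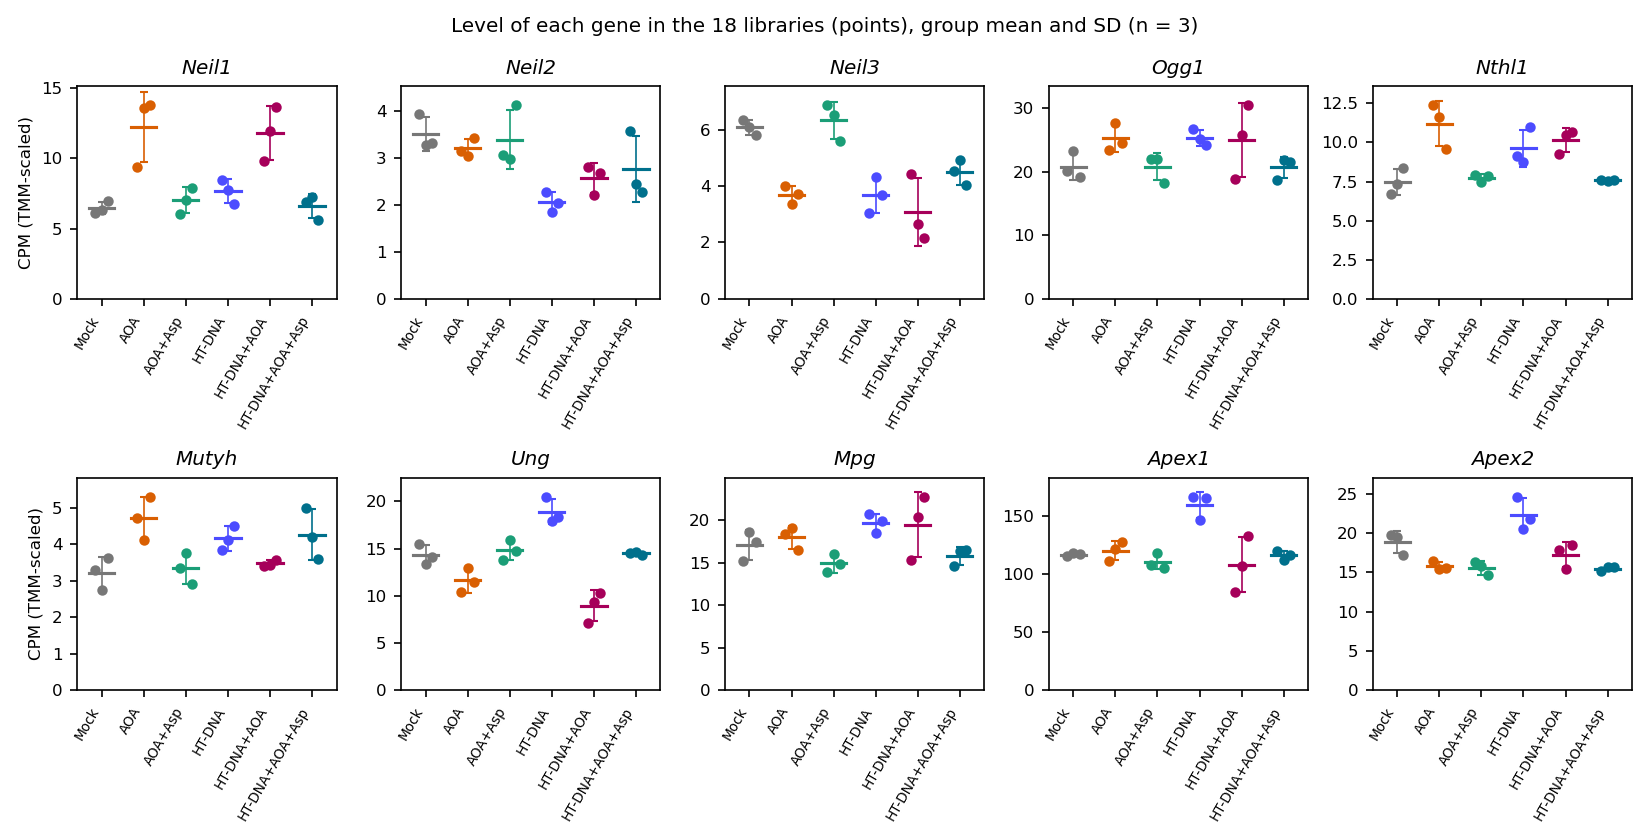
CPM of each of the 10 genes (vertical axes, each from 0) in the 18 libraries (points) of the 6 groups, with group means and SD bars. Neil1 is high in both groups with AOA and no aspartate, and Ung is highest with HT-DNA alone and lowest with HT-DNA+AOA. Ogg1 is spread most widely within HT-DNA+AOA.

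Neil1 encodes a bifunctional glycosylase that removes oxidized pyrimidines and ring-opened purines and that acts in mitochondria as well as the nucleus. It was at 6.14, 6.35 and 6.98 CPM in Mock, 9.37, 13.6 and 13.8 CPM in AOA, and 6.06, 7.05 and 7.92 CPM in AOA+Asp. With HT-DNA the 3 libraries were at 8.49, 7.77 and 6.77 CPM, with HT-DNA+AOA at 9.82, 12.0 and 13.7 CPM, and with HT-DNA+AOA+Asp at 6.87, 7.26 and 5.63 CPM. All 6 libraries with AOA and no aspartate lay above the other 12, with no overlap. The log2 fold change was 0.92 ± 0.16 (SE) between AOA and Mock (adjusted p = 0.000122) and -0.80 ± 0.16 between AOA+Asp and AOA (adjusted p = 0.000436). With HT-DNA present it was 0.62 ± 0.16 for AOA (adjusted p = 0.00336) and -0.84 ± 0.16 for aspartate (adjusted p = 0.000323). Neil1 kept all 4 of these calls in every alternative setting tried. Of the 15 pairs of groups 8 differed, and they are the pairs of either of the 2 groups with AOA and no aspartate with any of the other 4. Within those sets no pair differed, with AOA at 12.3 ± 2.5 and HT-DNA+AOA at 11.8 ± 1.92 CPM (SD, n = 3), and HT-DNA, AOA+Asp, HT-DNA+AOA+Asp and Mock at means of 7.68, 7.01, 6.59 and 6.49 CPM. The study displayed genes of mitochondrial DNA repair from the same libraries. The direction of Neil1, or of any other of the 10, is therefore not independent evidence for such a group.

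Neil2 encodes a relative of NEIL1 that acts on oxidized cytosines and on lesions in bubbles and single strands. Its levels were low, at 3.94, 3.29 and 3.32 CPM in Mock and 2.27, 1.85 and 2.05 CPM in HT-DNA. Every library with HT-DNA alone was below every Mock library. The log2 fold change of -0.77 ± 0.19 had an adjusted p of 0.00304, which held in all 14 alternatives. In the remaining groups Neil2 was between 2.21 and 4.13 CPM, and neither AOA (-0.13 ± 0.18, adjusted p = 0.579) nor aspartate (0.09 ± 0.18, adjusted p = 0.722) passed the test. In cells with HT-DNA the AOA difference was 0.32 ± 0.20 (adjusted p = 0.208). From the highest mean to the lowest the order was Mock, AOA+Asp, AOA, HT-DNA+AOA+Asp, HT-DNA+AOA and HT-DNA, and no neighbours in it differed. Over all 15 pairs of groups 4 differed, among them HT-DNA+AOA against Mock (-0.45 ± 0.19, adjusted p = 0.0493). HT-DNA+AOA+Asp spanned 2.27 to 3.58 CPM, a spread as wide as most of the differences between groups.

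Neil3 encodes the third NEIL enzyme, which works on single-stranded DNA and at interstrand crosslinks and is known from proliferating cells. It stood at 6.35, 6.08 and 5.79 CPM in Mock, 3.98, 3.35 and 3.72 CPM in AOA, and 6.86, 6.51 and 5.6 CPM in AOA+Asp. The AOA libraries were all below those of Mock and AOA+Asp. AOA lowered it by a log2 fold change of -0.72 ± 0.19 (adjusted p = 0.00465), and aspartate with AOA was 0.78 ± 0.19 above AOA (adjusted p = 0.00273). HT-DNA alone, at 3.03, 4.31 and 3.67 CPM, was also below Mock, with a log2 fold change of -0.72 ± 0.19 (adjusted p = 0.00455). These 3 calls held in every alternative, and with a correction for the GC content and length of the genes the HT-DNA value was -0.43 (adjusted p = 0.0261).

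In HT-DNA+AOA the Neil3 replicates were at 4.44, 2.67 and 2.15 CPM, from above to below those of HT-DNA alone, and the difference of -0.24 ± 0.21 did not pass (adjusted p = 0.356). Without HT-DNA+AOA replicate 1 it was -0.60 (adjusted p = 0.0130), and with the correction for GC content and length it was -0.41 (adjusted p = 0.0420). HT-DNA+AOA+Asp, at 4.55, 4.91 and 4.02 CPM, was 0.53 ± 0.20 above HT-DNA+AOA (adjusted p = 0.0367). That call was lost without HT-DNA+AOA replicate 2 or 3 or HT-DNA+AOA+Asp replicate 1 or 2, with adjusted p of 0.0797 to 0.180. It was also lost when only the libraries compared were fitted (adjusted p = 0.147) and with the correction (adjusted p = 0.0554), and without HT-DNA+AOA replicate 1 the value was 0.89 (adjusted p = 0.000336). The means fell from AOA+Asp (6.32 CPM) through Mock (6.07), HT-DNA+AOA+Asp (4.49), AOA (3.68) and HT-DNA (3.67) to HT-DNA+AOA (3.09), and no neighbours differed. Over all 15 pairs of groups 7 differed, among them HT-DNA+AOA against Mock (-0.97 ± 0.20, adjusted p = 0.000384).

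Nthl1 encodes the endonuclease III-like glycosylase for oxidized pyrimidines such as thymine glycol. It was at 6.73, 7.35 and 8.35 CPM in Mock, 12.4, 11.6 and 9.59 CPM in AOA, and 7.93, 7.44 and 7.84 CPM in AOA+Asp. The AOA libraries were above all of the other 6. AOA raised it by 0.59 ± 0.12 on the log2 scale (adjusted p = 0.000481), and aspartate with AOA was -0.53 ± 0.12 from AOA (adjusted p = 0.00109), and both calls held in every alternative. HT-DNA alone was at 9.15, 8.76 and 10.96 CPM, all above Mock, with a log2 fold change of 0.37 ± 0.12 (adjusted p = 0.0153). This last call was lost without HT-DNA replicate 3 (adjusted p = 0.104) or Mock replicate 1 (adjusted p = 0.0820) and with library totals in place of TMM (adjusted p = 0.0720), and with correction for GC content and length the value was 0.06 (adjusted p = 0.710).

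With HT-DNA+AOA the Nthl1 libraries were at 9.25, 10.5 and 10.7 CPM, within reach of HT-DNA alone, and the difference was 0.07 ± 0.12 (adjusted p = 0.651), or 0.29 with correction for GC content and length (adjusted p = 0.0382). HT-DNA+AOA+Asp was at 7.59, 7.55 and 7.58 CPM, the tightest set of replicates, and every one of its libraries lay below the HT-DNA and HT-DNA+AOA libraries. The log2 fold change was -0.42 ± 0.12 against HT-DNA+AOA (adjusted p = 0.00746) and -0.35 ± 0.12 against HT-DNA (adjusted p = 0.0222). With the same correction the first was -0.27 and no longer passed (adjusted p = 0.0548), and the second was 0.02 (adjusted p = 0.931). The second call was also lost without HT-DNA replicate 3 or any 1 replicate of HT-DNA+AOA+Asp (adjusted p = 0.0518 to 0.139) and without the filter on low counts (adjusted p = 0.0671). The group means formed an upper set of AOA, HT-DNA+AOA and HT-DNA (11.2, 10.1 and 9.62 CPM) and a lower set of AOA+Asp, HT-DNA+AOA+Asp and Mock (7.73, 7.57 and 7.48 CPM). The step from HT-DNA to AOA+Asp was the only one between neighbours that passed (adjusted p = 0.0284).

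Ogg1 encodes the glycosylase for 8-oxoguanine paired with cytosine. It was at 20.1, 23.3 and 19.1 CPM in Mock, 23.5, 27.7 and 24.6 CPM in AOA, and 22.1, 22.0 and 18.3 CPM in AOA+Asp. It was at 26.7, 25.2 and 24.2 CPM with HT-DNA, 18.9, 25.9 and 30.5 CPM with HT-DNA+AOA, and 18.8, 21.8 and 21.5 CPM with HT-DNA+AOA+Asp. The AOA libraries were above those of Mock and the HT-DNA libraries were as well, yet neither log2 fold change passed the test, at 0.28 ± 0.13 for AOA (adjusted p = 0.0944) and 0.28 ± 0.13 for HT-DNA (adjusted p = 0.0864). Aspartate with AOA was -0.28 ± 0.13 from AOA (adjusted p = 0.0892). Ogg1 was the 1 gene of the 10 without a call in the test of any difference among the 6 groups (adjusted p = 0.0694), beside 78.4% of all genes called, and no pair of groups differed. When only the libraries compared were fitted, the AOA, HT-DNA and aspartate differences passed (adjusted p = 0.0223, 0.0126 and 0.0166), as did HT-DNA+AOA+Asp against HT-DNA, at -0.29 (adjusted p = 0.00577). Without the filter on low counts the HT-DNA and aspartate differences and the last of these passed as well (adjusted p = 0.0346, 0.0477 and 0.0322). Without HT-DNA+AOA replicate 1 aspartate lowered it by -0.44 in cells with HT-DNA (adjusted p = 0.00149), against -0.27 (adjusted p = 0.101) with all libraries.

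Mutyh encodes the glycosylase that removes adenine placed opposite 8-oxoguanine. It was at 3.30, 2.75 and 3.61 CPM in Mock, 4.71, 4.12 and 5.29 CPM in AOA, and 3.36, 3.77 and 2.91 CPM in AOA+Asp. The AOA libraries were above all 6 of the others. The AOA difference was 0.54 ± 0.16 (adjusted p = 0.00895) and that of aspartate with AOA -0.49 ± 0.16 (adjusted p = 0.0165). The first was 0.44 without Mock replicate 2 (adjusted p = 0.0529), and the second was lost without AOA replicate 3 (adjusted p = 0.0738) or AOA+Asp replicate 3 (adjusted p = 0.0826), without the filter on low counts (adjusted p = 0.0701) and with correction for GC content and length, where it was -0.33 (adjusted p = 0.0970).

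In cells with HT-DNA the picture for Mutyh differed, with 3.84, 4.12 and 4.50 CPM in HT-DNA and 3.40, 3.44 and 3.58 CPM in HT-DNA+AOA. The latter libraries were all below the former, and the log2 fold change of -0.26 ± 0.16 did not pass (adjusted p = 0.199). HT-DNA+AOA+Asp was at 4.98, 4.19 and 3.60 CPM, 0.29 ± 0.16 above HT-DNA+AOA (adjusted p = 0.140), or 0.44 with correction for GC content and length (adjusted p = 0.0312). With the same correction HT-DNA+AOA was -0.49 from AOA (adjusted p = 0.0396). HT-DNA against Mock was 0.37 ± 0.16 (adjusted p = 0.0620), and without Mock replicate 3 it was 0.46 (adjusted p = 0.0463). With 60 to 103 counts a library, 2 of the 15 pairs of groups differed, AOA against Mock and AOA against AOA+Asp.

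Ung encodes the glycosylase that removes uracil from DNA, where it arises from deaminated cytosine or from dUMP used in replication. It had the widest range of the 10, at 15.5, 13.3 and 14.1 CPM in Mock, 10.4, 13.0 and 11.5 CPM in AOA, and 13.8, 16.0 and 14.8 CPM in AOA+Asp. It was at 20.5, 17.95 and 18.3 CPM with HT-DNA, 7.16, 9.39 and 10.3 CPM with HT-DNA+AOA, and 14.6, 14.7 and 14.3 CPM with HT-DNA+AOA+Asp. Each HT-DNA library was above all others, and each HT-DNA+AOA library was below all others. HT-DNA alone rose by 0.40 ± 0.11 over Mock (adjusted p = 0.00678), AOA in cells with HT-DNA changed it by -1.08 ± 0.12 (adjusted p = 4.84e-07), and aspartate then raised it by 0.70 ± 0.12 (adjusted p = 0.000108). These 3 calls held in every alternative.

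The changes of Ung without HT-DNA were smaller. AOA was -0.30 ± 0.12 from Mock (adjusted p = 0.0433), and without Mock replicate 1 or 3 or AOA replicate 1 or 3 the adjusted p was 0.0725 to 0.173, and without the filter on low counts it was 0.0713. Aspartate with AOA was 0.35 ± 0.12 above AOA (adjusted p = 0.0196), which was lost without AOA replicate 1 or 3 or AOA+Asp replicate 2 (adjusted p = 0.0511 to 0.0925). HT-DNA+AOA was -0.38 ± 0.12 from AOA (adjusted p = 0.0433), a call lost in 9 of 15 alternatives, among them those without AOA replicate 2 or 3 or HT-DNA+AOA replicate 1 or 2 (adjusted p = 0.0728 to 0.212). HT-DNA+AOA+Asp was -0.38 ± 0.11 from HT-DNA (adjusted p = 0.0103), and without HT-DNA replicate 1 the adjusted p was 0.0543. In the order of means, HT-DNA (18.9 ± 1.36 CPM) differed from AOA+Asp (14.8 ± 1.1), and AOA+Asp, HT-DNA+AOA+Asp (14.5 ± 0.166) and Mock (14.3 ± 1.09) did not differ from their neighbours. AOA (11.6 ± 1.29) was below Mock, and HT-DNA+AOA (8.96 ± 1.62) was below AOA. In all, 12 of the 15 pairs differed.

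Lists of cell cycle genes also differed between these groups. Of 19 S-phase genes, 1 was higher and 13 were lower with AOA than in Mock, beside 22.4% and 23.3% of all genes, and 10 were higher and 1 was lower with HT-DNA than in Mock, beside 24.2% and 24.0%. With HT-DNA+AOA 1 was higher and 10 were lower than with HT-DNA, beside 22.8% and 22.7%. Aspartate added to AOA gave 6 higher and 1 lower without HT-DNA, beside 23.5% and 22.8%, and 6 higher and 0 lower with it, beside 23.7% and 23.9%. Their summed level was 2259 to 2425 CPM in Mock, 1915 to 2043 CPM in AOA, 2053 to 2193 CPM in AOA+Asp, 2806 to 2860 CPM in HT-DNA, 1995 to 2103 CPM in HT-DNA+AOA and 2208 to 2240 CPM in HT-DNA+AOA+Asp. Of 16 genes of G2 and mitosis, 9 were lower and 0 were higher with AOA, 10 were higher and 0 were lower in AOA+Asp than in AOA, and 5 were higher and 6 lower with HT-DNA than in Mock. With HT-DNA+AOA 9 of them were lower and 0 higher than with HT-DNA, and aspartate added to HT-DNA+AOA gave 9 higher and 0 lower, and the shares of all genes are those given for the S-phase genes. Their sum was 2574 to 2659 CPM in Mock, 2068 to 2150 CPM in AOA and 2688 to 2909 CPM in AOA+Asp. It was 2390 to 2628 CPM in HT-DNA, 1733 to 2164 CPM in HT-DNA+AOA and 2448 to 2566 CPM in HT-DNA+AOA+Asp. None of the 35 genes was at 0 in any group, and their part in the results for Ung and Neil3 was not tested.

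Mpg encodes the glycosylase for alkylated purines and hypoxanthine. It lay between 13.9 and 22.7 CPM in all 18 libraries. With HT-DNA it was at 20.7, 18.5 and 19.8 CPM, and with HT-DNA+AOA+Asp at 14.6, 16.4 and 16.5 CPM, a set wholly below it. This was its 1 call among the 9 comparisons of groups, at -0.31 ± 0.12 (adjusted p = 0.0391), and the adjusted p was 0.0604 to 0.138 without HT-DNA replicate 1 or 3 or any 1 replicate of HT-DNA+AOA+Asp. The call was also lost with library totals in place of TMM (adjusted p = 0.0634), and with correction for GC content and length the value was -0.10 (adjusted p = 0.420). The AOA difference was 0.08 ± 0.12 (adjusted p = 0.614), and that of aspartate with AOA was -0.27 ± 0.12 (adjusted p = 0.0726), which passed when only the libraries compared were fitted (adjusted p = 0.0277). The HT-DNA+AOA libraries were spread widely, at 15.2, 20.3 and 22.7 CPM, and without replicate 1 of that group aspartate lowered Mpg by -0.44 (adjusted p = 0.00100) in place of -0.29 (adjusted p = 0.0530). That value of -0.29 lay near the threshold, and it passed by DESeq2 (adjusted p = 0.0399), with RLE normalization (adjusted p = 0.0436), with genes of 10 counts in every library (adjusted p = 0.0410) and with the replicate block (adjusted p = 0.0425). Nprl3, which overlaps Mpg, was 0.20 ± 0.10 from Mock with AOA (adjusted p = 0.108) and -0.29 ± 0.10 from AOA with aspartate (adjusted p = 0.0222). Between HT-DNA+AOA+Asp and HT-DNA, where Mpg had its call, Nprl3 was at -0.22 ± 0.10 (adjusted p = 0.0709).

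Apex1 encodes the main AP endonuclease, which also acts as a redox factor for transcription factors. It was at 115, 118 and 117 CPM in Mock, 112, 122 and 128 CPM in AOA, and 108, 118 and 106 CPM in AOA+Asp, sets that overlapped. With HT-DNA it was at 167, 146 and 166 CPM, above every other library. HT-DNA against Mock gave 0.45 ± 0.11 (adjusted p = 0.00251), a call kept in all 14 alternatives, although correction for GC content and length brought the value to 0.15 (adjusted p = 0.0324). HT-DNA+AOA was at 84.9, 107 and 133 CPM and HT-DNA+AOA+Asp at 120, 113 and 116 CPM. Both were below HT-DNA, by -0.56 ± 0.11 (adjusted p = 0.00031) and -0.46 ± 0.11 (adjusted p = 0.00258), and both calls held in all alternatives. With the correction the second of these was -0.20 (adjusted p = 0.00734). HT-DNA at 159 ± 11.5 CPM differed from the next group, AOA at 120 ± 8.15 CPM (adjusted p = 0.00450), and AOA, Mock, HT-DNA+AOA+Asp, AOA+Asp and HT-DNA+AOA did not differ from their neighbours. Without HT-DNA+AOA replicate 3, the highest of its group, Apex1 was -0.33 from AOA (adjusted p = 0.0139), and HT-DNA+AOA+Asp was 0.28 above HT-DNA+AOA (adjusted p = 0.0138). With all libraries these values were -0.16 (adjusted p = 0.400) and 0.11 (adjusted p = 0.444), and with the correction they were -0.27 (adjusted p = 0.00138) and 0.36 (adjusted p = 1.23e-05).

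Pip4p1, a phosphatase gene that overlaps Apex1, moved the other way between HT-DNA and Mock. Between HT-DNA+AOA and HT-DNA it moved the same way as Apex1, which was at -0.56 (adjusted p = 0.00031). Between HT-DNA+AOA+Asp and HT-DNA, where Apex1 was lower, Pip4p1 was at 0.09 ± 0.10 (adjusted p = 0.461). It was -0.40 ± 0.10 from Mock with HT-DNA (adjusted p = 0.00341), -0.58 ± 0.10 with AOA (adjusted p = 0.000132) and -0.54 ± 0.10 from HT-DNA with HT-DNA+AOA (adjusted p = 0.000308). For the AOA comparison without HT-DNA, where Apex1 was 0.04 ± 0.11 from Mock (adjusted p = 0.774), correction for GC content and length gave -0.15 (adjusted p = 0.0277).

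Apex2 encodes the second AP endonuclease, with a weak AP activity and a strong 3′ exonuclease, and it is X-linked (chrX:150519519-150589868). It was at 19.8, 19.6 and 17.2 CPM in Mock, 16.4, 15.4 and 15.6 CPM in AOA, and 16.4, 15.8 and 14.6 CPM in AOA+Asp. It was at 24.6, 20.5 and 21.8 CPM with HT-DNA, 17.8, 15.5 and 18.5 CPM with HT-DNA+AOA, and 15.1, 15.6 and 15.7 CPM with HT-DNA+AOA+Asp. Aspartate with AOA was -0.02 ± 0.09 from AOA (adjusted p = 0.867), and the AOA and AOA+Asp libraries overlapped. HT-DNA libraries were above all others. AOA with HT-DNA gave -0.37 ± 0.09 (adjusted p = 0.00238) and HT-DNA+AOA+Asp was -0.52 ± 0.09 from HT-DNA (adjusted p = 0.000239). The first of these was lost when only the libraries compared were fitted (adjusted p = 0.0520), and the second held in all 14 alternatives. The smaller differences from Mock were -0.26 ± 0.09 with AOA (adjusted p = 0.0283) and 0.24 ± 0.09 with HT-DNA (adjusted p = 0.0324). The first was lost without Mock replicate 1 or 2 or AOA replicate 2 or 3 (adjusted p = 0.0706 to 0.106), and the second without Mock replicate 3 or HT-DNA replicate 1 or 3 (adjusted p = 0.0553 to 0.180). Without the filter on low counts both were lost (adjusted p = 0.104 and 0.107). With correction for GC content and length the AOA value was -0.18 (adjusted p = 0.157) and the HT-DNA value 0.51 (adjusted p = 0.000308), and with library totals in place of TMM they were -0.39 (adjusted p = 0.00163) and 0.13 (adjusted p = 0.230). With the correction HT-DNA+AOA+Asp was also -0.31 from HT-DNA+AOA (adjusted p = 0.0180).

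**Figure D3:**
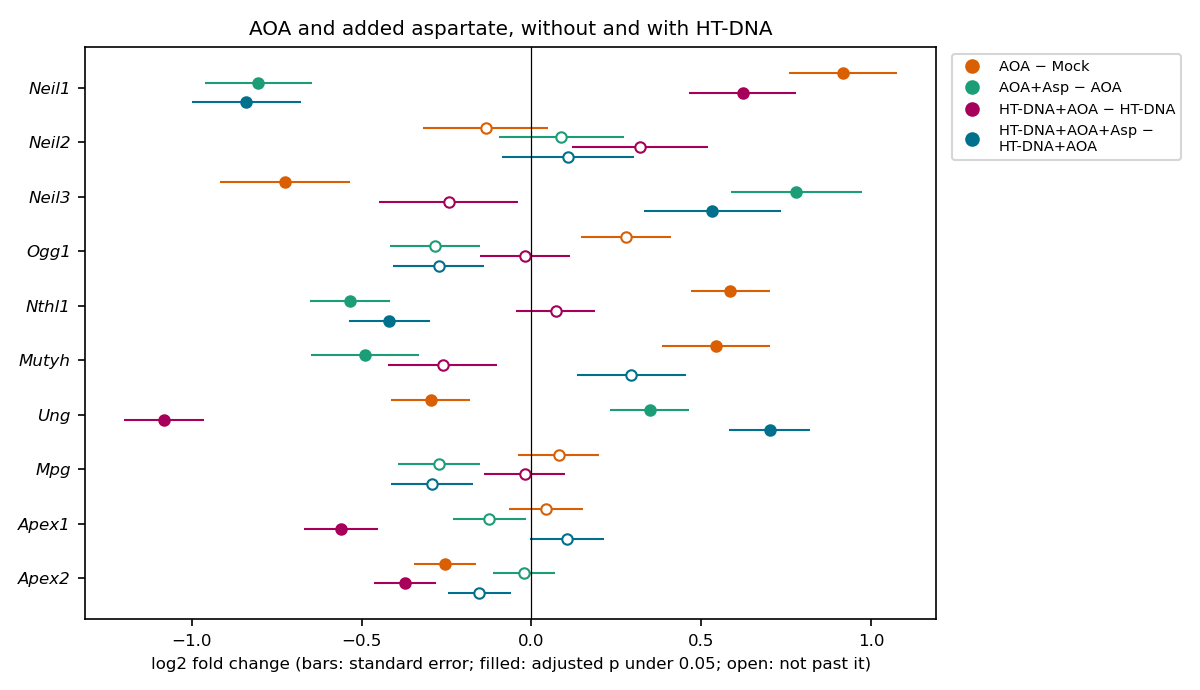
Log2 fold changes (horizontal axis, with SE bars) of the 10 genes for AOA and for aspartate added to AOA, without and with HT-DNA, with filled points for an adjusted p under 0.05. Neil1 and Ung are filled in all 4 comparisons, with AOA and aspartate on opposite sides of 0.

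Whether AOA acted differently once HT-DNA was present was tested by the interaction, the AOA difference with HT-DNA minus that without it. It passed for 4 of the 10 genes, all negative, beside 15.5% of all genes called and 8.26% called negative. The values were -0.80 ± 0.23 for Mutyh (adjusted p = 0.0234), -0.78 ± 0.17 for Ung (adjusted p = 0.00524), -0.60 ± 0.15 for Apex1 (adjusted p = 0.0147) and -0.51 ± 0.17 for Nthl1 (adjusted p = 0.0421). All 4 contrasts take the HT-DNA libraries in part as their baseline, and those libraries were the ones that stood apart. The Ung value held in all 20 alternatives. The Mutyh value was lost without Mock replicate 2, AOA replicate 3 or HT-DNA replicate 3 (adjusted p = 0.0575 to 0.0631), without the filter on low counts (adjusted p = 0.0511) and with correction for GC content and length, at -0.56 (adjusted p = 0.0977). The Apex1 value was lost in 1 of 20, the fit of the libraries compared alone (adjusted p = 0.0507). The Nthl1 value was lost in 12 of 20 alternatives, with adjusted p of 0.0606 to 0.123 without any of Mock replicates 1 and 2, AOA replicates 1 and 2, HT-DNA replicates 1 and 3 and HT-DNA+AOA replicates 1 and 2. Without HT-DNA+AOA replicate 3, Neil3 and Ogg1 passed as well, at 0.67 (adjusted p = 0.0486) and -0.46 (adjusted p = 0.0337). For aspartate the same test called 0 of the 10 by edgeR and 0 by DESeq2, beside 1.05% of all genes, with 2 at an unadjusted p under 0.05.

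**Figure D4:**
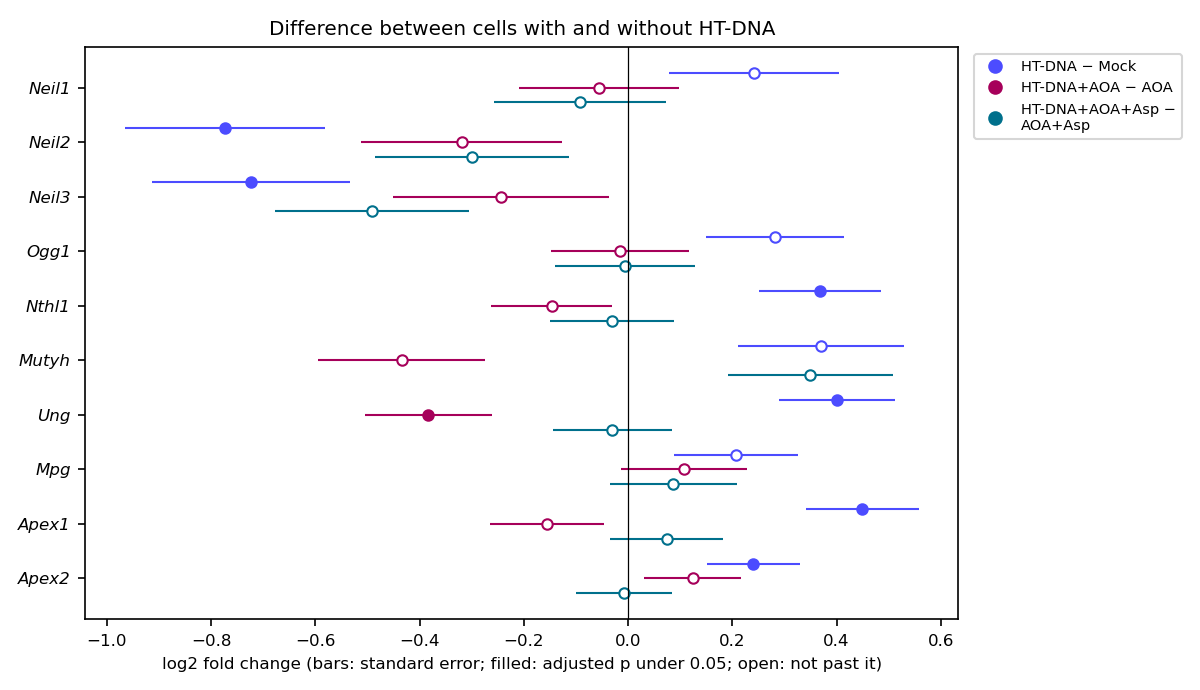
Log2 fold changes (horizontal axis, with SE bars) of the 10 genes between cells with and without HT-DNA, in Mock, AOA and AOA+Asp cells, with filled points for an adjusted p under 0.05. In Mock cells 6 points are filled, in AOA cells 1 and in AOA+Asp cells 0.

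The rest of the pathway, 36 genes that were all tested, was called in both directions. With AOA 9 were higher and 5 lower, and with aspartate added 10 were higher and 7 lower. HT-DNA alone gave 17 higher and 4 lower, and AOA with HT-DNA gave 9 higher and 13 lower against HT-DNA. The background of called genes for these comparisons was 45.7%, 46.3%, 48.2% and 45.4%. Split into higher and lower, it was 22.4% and 23.3%, 23.5% and 22.8%, 24.2% and 24.0%, and 22.8% and 22.7%. Among the other 3 glycosylases, Mbd4, which removes thymine from T:G mispairs, was -0.45 from Mock with AOA (adjusted p = 0.0213) and 0.93 from AOA with aspartate (adjusted p = 6.59e-05). Smug1, a second uracil glycosylase, was 0.32 from Mock with HT-DNA (adjusted p = 0.00236) and -0.58 from HT-DNA with HT-DNA+AOA (adjusted p = 5.55e-06). Tdg did not pass in these 4 comparisons. Of the 3, aspartate added to AOA gave 2 higher, Mbd4 and Smug1, and 0 lower. HT-DNA alone gave 1 higher, Smug1, and 1 lower, Mbd4.

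Of 3 genes for short-patch filling and sealing, Lig3, the ligase that also serves mitochondria, was 0.39 from Mock with AOA (adjusted p = 0.00199). Polb and Poll rose with HT-DNA, by 0.55 (adjusted p = 0.000448) and 0.36 (adjusted p = 0.0202). Among the 3, aspartate added to AOA gave 0 higher and 1 lower, beside 23.5% and 22.8% of all genes. AOA with HT-DNA, against HT-DNA, gave 1 higher and 1 lower, beside 22.8% and 22.7%. Of 6 genes for repair synthesis in mitochondria, AOA raised 3 and lowered 0, beside 22.4% of all genes called higher and 23.3% called lower, namely the nucleases Endog (0.71, adjusted p = 0.00176), Mgme1 (0.58, adjusted p = 1.31e-06) and Exog (0.51, adjusted p = 0.00423). When aspartate was added to AOA, 2 of the 6 fell, Endog by 1.02 and Mgme1 by 0.37 on the log2 scale (adjusted p = 9.29e-05 and 0.000203), and Dna2 rose by 0.32 (adjusted p = 0.0309). For that comparison 22.8% of all genes were called lower and 23.5% higher. HT-DNA alone raised 3 and lowered 0, beside 24.2% of all genes called higher and 24.0% called lower. AOA with HT-DNA, against HT-DNA, raised Mgme1 and Exog, by 0.65 (adjusted p = 2.01e-07) and 0.58 (adjusted p = 0.00149), and lowered Polg and Dna2, which were at -0.37 (adjusted p = 0.000187) and -0.34 (adjusted p = 0.0246). In that comparison 22.8% of all genes were called higher and 22.7% lower. Of 16 genes of long-patch synthesis, AOA raised 3 and lowered 4, beside 22.4% and 23.3% of all genes. HT-DNA raised 9 of the 16 and lowered 3, beside 24.2% and 24.0%. Aspartate added to AOA raised 5 and lowered 2, beside 23.5% and 22.8%. AOA with HT-DNA, against HT-DNA, raised 3 and lowered 8, beside 22.8% and 22.7%. Of 4 genes that clear damaged or wrong nucleotides from the pool, AOA raised 1 and lowered 1, beside 22.4% and 23.3%.

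The 2 genes with the widest range of group means, Ung (1.08 on the log2 scale) and Neil3 (1.07), were compared with 12131 genes of at least 1 CPM by the Pearson correlation of log2 CPM over the 18 libraries. The most alike to Ung were Usp5 (r = 0.972), Axin1 (r = 0.964) and Plekho1 (r = 0.963). The most alike to Neil3 were Wwc2 (r = 0.962), Anln (r = 0.962) and Prkaa1 (r = 0.959). All genes share the same 18 libraries and their depth, so these values describe the libraries only.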

How the data were processed

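RNA of L929 cells was sequenced in 6 groups of 3 libraries, assigned from the sample labels. The authors deposited expected counts, estimated numbers of reads per gene without normalization, of which 11.6% were not whole numbers (tolerance 1e-06). The aligner, counter, genome build and strand setting are not given in the sources used here. Columns of group means, computed by the authors, deviated from the means of the single libraries by at most 3.33e-05 and were not used.

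The planned test assumed whole counts, so values were rounded first and then fitted in R 4.3.3 with edgeR 4.0.16. Genes were filtered with filterByExpr (minimum count 10, minimum total 15), which kept 14263, libraries were scaled with TMM, and 1 robust quasi-likelihood model held all 18 libraries. Each of 9 comparisons, 2 interactions and a test of any difference among the 6 groups was adjusted by Benjamini-Hochberg over all genes tested, and an adjusted p under 0.05 was called. Tests are two-sided. The study names 3 biological replicates. The spread between cultures was estimated for each gene over all 6 groups together, and p-values and SE rest on that shared estimate. Errors may be too small in comparisons with HT-DNA+AOA, whose replicates differed most, and too large between groups with close replicates. Library totals of 17901605 to 24057343 counts set the precision, and the error given comes from the fitted model, since replicates differed by more than counting error. No replicates were copies of one library. The steps were tested on simulated counts.

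All 10 genes were named, with genes of fixed lists that passed the test and, for the 2 members of widest range, the 3 genes most alike. A few genes of these lists are not reported here. Members and lists were chosen with earlier results of these data known. Lengths, GC content and overlaps came from GENCODE vM21 (GRCm38), which holds 51933 of the 57180 gene identifiers, and promoters from RefSeq (GRCm38.p6). Alternatives were DESeq2 1.42.0, RLE normalization, library totals, no filter, 10 counts in every library, the replicate number fitted as a block, a fit of the compared libraries alone, each replicate left out, a correction for GC content and length (loess, span 0.3) and, added after the data were seen, a fit without the 3 libraries of HT-DNA alone. Figures and tables were made with Python 3.11.15 and pandas 2.3.3.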

Additional observations from a re-analysis of the deposited data

Results flagged for a closer look

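The effect of AOA differed between cells with and without HT-DNA for 4 of the 10 genes, by the interaction term of the edgeR fit. On the log2 scale the difference was -0.80 for Mutyh, -0.78 for Ung, -0.60 for Apex1 and -0.51 for Nthl1. For Mutyh the AOA difference was 0.54 without HT-DNA and -0.26 with it. For Ung it was -0.30 and -1.08, for Apex1 0.04 and -0.56, and for Nthl1 0.59 and 0.07. Apex1 and Ung were highest with HT-DNA alone, and the S-phase genes were at a summed level of 2806 to 2860 CPM in those libraries against 1915 to 2425 CPM in the other 5 groups, and their part in the result was not tested.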

How the results depend on the processing

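Of the 35 calls of single genes, 18 held in every alternative and 17 were lost in at least 1, and of the 75 values without a call 22 passed in at least 1. By DESeq2 109 of 110 values kept their side of the threshold, by correction for GC content and length 93 did, and without the 3 libraries of HT-DNA alone 69 of the 70 values that do not use them did. The correction for GC content and length reversed 2, Apex1 between AOA and Mock at -0.15 and Nthl1 between HT-DNA+AOA+Asp and HT-DNA at 0.0156. Counts of genes called moved by over 1.5 times as follows, and the cause was not tested. Between AOA+Asp and Mock the count was 1 with library totals and 1 with only the libraries compared, in place of 0. Between HT-DNA+AOA+Asp and AOA+Asp it was 1 with only the libraries compared, in place of 0. Between HT-DNA+AOA+Asp and HT-DNA it was 3 with the correction, in place of 5. Between HT-DNA+AOA and AOA it was 0 with RLE, with no filter, with the replicate block, with only the libraries compared and without the 3 libraries of HT-DNA alone, and 3 with the correction, in place of 1. For the AOA interaction it was 2 with no filter, with only the libraries compared and with the correction, in place of 4.

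With single replicates left out, the count was 4 to 5 for AOA, 3 to 5 for AOA+Asp against AOA (3 without AOA replicate 3), 4 to 6 for HT-DNA, 4 to 5 for HT-DNA+AOA against HT-DNA and 3 to 6 for HT-DNA+AOA+Asp against HT-DNA+AOA. It was 3 to 5 for HT-DNA+AOA+Asp against HT-DNA (3 without HT-DNA replicate 1 or 3 or HT-DNA+AOA+Asp replicate 1 or 2) and 0 to 2 for HT-DNA+AOA against AOA (0 without AOA replicate 2 or 3 or HT-DNA+AOA replicate 2, and 2 without HT-DNA+AOA replicate 3). For the interaction of AOA it was 2 to 6 (2 without Mock replicate 2 or HT-DNA replicate 3). Correlations between same-numbered libraries ran from -0.104 to 0.278, and 3 of 27 were over 0.1, all of them with HT-DNA+AOA. Libraries of different numbers were not compared, so these values cannot decide whether replicate numbers paired the samples. The replicate block kept 108 of 110 values on their side of the threshold. It lost Ung between HT-DNA+AOA and AOA (adjusted p = 0.0513) and gained Mpg between HT-DNA+AOA+Asp and HT-DNA+AOA (adjusted p = 0.0425).

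With library totals in place of TMM the median of all genes was -0.12 for AOA and for HT-DNA against Mock, and genes called higher and lower numbered 2124 and 4502 for AOA, in place of 3199 and 3317, and 2408 and 4437 for HT-DNA, in place of 3454 and 3425. They numbered 4087 and 2484 for AOA+Asp against AOA (3345 and 3255 with TMM), 231 and 873 for AOA+Asp against Mock (360 and 563), 4194 and 2548 for HT-DNA+AOA+Asp against HT-DNA+AOA (3386 and 3411) and 1388 and 763 for the AOA interaction (1031 and 1178). With only the libraries compared, calls over all genes were 4167 in place of 6477 for HT-DNA+AOA against HT-DNA, 4278 in place of 6797 for HT-DNA+AOA+Asp against HT-DNA+AOA, 394 in place of 1917 for HT-DNA+AOA against AOA, 2462 in place of 923 for AOA+Asp against Mock, 1896 in place of 492 for HT-DNA+AOA+Asp against AOA+Asp, and 1019 in place of 2209 for the AOA interaction. The correction gave 1497 for AOA+Asp against Mock and 1165 for HT-DNA+AOA+Asp against AOA+Asp. For the aspartate interaction the calls ran from 66 to 357 over the alternatives other than those with a replicate left out, in place of 150. Depth limits Neil2, Mutyh and Neil3 most, with as few as 39, 60 and 36 counts in a library. Annotation overlap limits Apex1 and Mpg most, and smaller stretches of Ogg1 and Apex2 overlap other genes too.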
